A study of Rattus norvegicus with 12 samples.

Results

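Rat heart cells carrying viral Sall4 and Gata4 were moved into 2 media, and the genes whose RNA changed alike in both were read against the cells before the move. Of 14399 genes tested, 300 changed the same way and by a similar size in both media. The starting cells, called GS, derive from cardiac fibroblasts, are labelled immortalized and non treated, and were undifferentiated. CMM cells are GS cells in CMM medium, labelled for cardiomyocyte differentiation. ECCMM cells are GS cells in CMM medium to which EGM2 solution was added, labelled for cardiomyocyte and endothelial differentiation. RCF, the wild-type parental fibroblasts, enter the filter on low counts, the scaling of libraries and the estimate of spread, but no comparison. They are given as a reference level. Each of the 4 groups has 3 libraries, called biological replicates in the design text. All 12 samples are labelled as primary cultures of heart and carry the same note on viral overexpression, RCF included. The sources used here do not state the make-up of CMM, the time in each medium, the rats' strain and age, or the number of GS clones. They name no GS cultures kept for the same time or to the same density, so effects of the media and of culture time or growth state cannot be told apart.

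The response common to both media was read as the mean of the CMM and ECCMM groups, with equal weight, minus GS, over 9 of the 12 libraries. The table lists 32545 genes, of which 14399 passed the filter on low counts. In this averaged comparison 9430 genes passed an adjusted p of 0.05 (edgeR's quasi-likelihood test with Benjamini-Hochberg adjustment), which is 65.5% of those tested. Of these, 4551 were higher (31.6%) and 4879 lower (33.9%) in the media. Against GS alone, CMM differed in 9256 genes (64.3%) and ECCMM in 9651 genes (67%), and the media differed from each other in 9167 genes (63.7%). With calls in most of the tested genes, a called gene by itself says little, and size and likeness between the media were used to choose what is described here.

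A gene was called shared when it passed 0.05 in the averaged comparison and in each medium, moved the same way by at least 2-fold in each, and had a 95% interval of the ECCMM to CMM difference within 1.5-fold (log2 0.585) either way. The steps left 2730 genes called higher in both media and 2739 called lower in both. Of these, 673 and 552 moved at least 2-fold in both, and 194 shared rises (1.35% of genes tested) and 106 shared falls (0.736%) met every condition. The other 925 genes that moved at least 2-fold the same way in both were set aside for size. In 390 of them the difference lay within the bound but its interval did not, in 170 the change was larger in CMM by more than the bound, and in 365 it was larger in ECCMM. A further 1637 genes were called in opposite directions in the media. Counts of list members called the same way in both media or in opposite directions, given below, are to be read against these numbers. They are out of 14399 tested genes. Because the shared genes were chosen by these values, their sizes are a description and carry no test of their own. Both media are compared with the same 3 GS libraries, so an error in the GS level moves both comparisons the same way.

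**Figure D1:**
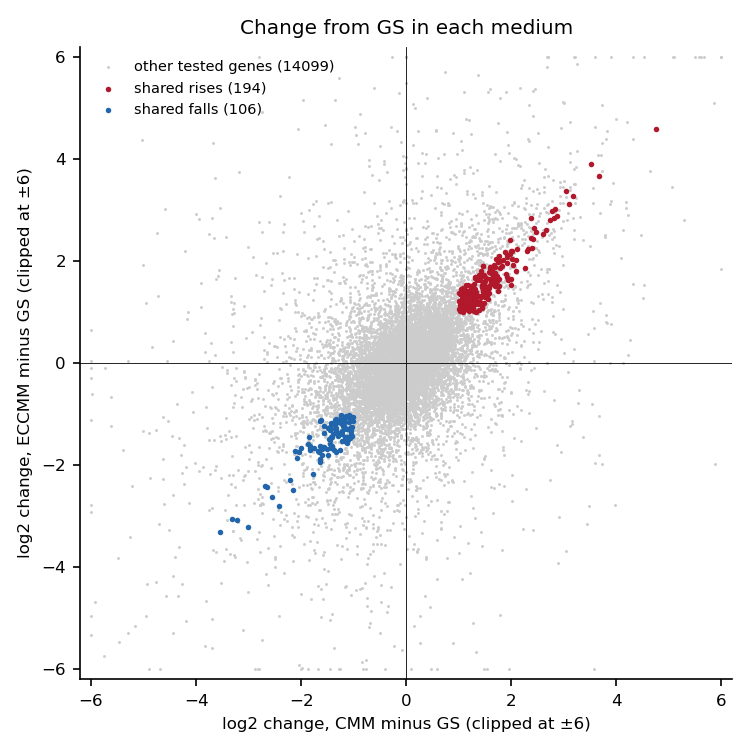
Log2 change from GS in CMM (horizontal axis) and in ECCMM (vertical axis) for the 14399 tested genes, clipped at 6 either way. Red points are the 194 shared rises and blue points the 106 shared falls, which lie along the diagonal by the way they were chosen, and grey points are the other tested genes.

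The edges of the rule show how the choice was made. Haus5, a subunit of the augmin complex of the spindle, was just inside the interval bound, with the far end of its interval at 0.58 on the log2 scale. Hmgcs1, an early enzyme of cholesterol synthesis, was just outside at 0.59, although it changed by log2 2.25 in CMM and 2.77 in ECCMM. For the fold minimum, Usmg5 was just inside and Tmem147 just outside, with smaller changes of 1.0009 and 0.9997 on the log2 scale. No GS library overlapped the range of the 6 media libraries in any of the 300 shared genes. The 2-fold minimum and the small spread between replicates make this likely in advance, so it adds no support. The share of all tested genes without overlap was not counted, and a lack of overlap noted below for single genes describes their levels only. The fit put a biological coefficient of variation of 9.72% between replicates.

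The libraries ranged from 16255682 to 23117864 counts over 16044 to 16707 detected genes. Levels below are CPM, counts per 1000000 of the TMM-scaled library size, given for replicates 1, 2 and 3 in that order, and ± after a level is the SD over 3 libraries. A log2 change is the fitted averaged change with its standard error unless a medium is named. Since CPM are shares of each library, fewer cells expressing a gene and less of its RNA in each cell cannot be told apart. The 7 defining fibroblast markers summed to 31000 to 34290 CPM in GS, 42020 to 43030 in CMM and 25510 to 25960 in ECCMM. Col1a1 made up most of these sums, at 23490 to 25110 CPM in GS, 34160 to 35920 in CMM and 18060 to 18240 in ECCMM. Vim and Pdgfra were abundant in all 3 groups, whereas Tcf21 and Dcn reached at most 0.644 and 1.51 CPM in any of their libraries. In RCF Tcf21 was at 17.89 to 19.05 CPM and Dcn at 31.08 to 34.12. Postn was at 95.05 to 101.5 CPM in GS, 688.1 to 704.3 in CMM and 56.89 to 62.36 in ECCMM. Col1a2 varied between replicates, at 1378 to 3453 CPM in GS, 1272 to 2804 in CMM and 1148 to 1505 in ECCMM. Of the defining markers of the lineages named in the labels, 5 cardiomyocyte genes summed to 2.64 to 3.07 CPM in GS, 11.3 to 12.9 in CMM and 34.2 to 34.9 in ECCMM. Tnnt2 alone made up 33.6 to 34.4 CPM of the ECCMM sum, while Actc1 reached 2.33 CPM in CMM and 0.311 in ECCMM, Actn2 1.51 and 0.263, and Myh6 1.01 and 0.47, and Myh7 was at 0 in GS and ECCMM. In RCF the 5 cardiomyocyte genes summed to 15.33 to 16.39 CPM, above CMM, with Tnnt2 at 14.48 to 16.01. The 4 endothelial genes summed to 12.7 to 14.9, 16.03 to 21.1 and 16.8 to 18.5 CPM. Tek made up most of these sums, at 11.46 to 13.19 CPM in GS, 13.79 to 19.56 in CMM and 12.74 to 14.83 in ECCMM. Vwf was at 1.223 to 1.606, 1.043 to 2.235 and 3.447 to 3.985 CPM in the same groups. Kdr reached at most 0.202 CPM and Cdh5 0.463 CPM in any library of the 3 groups. In RCF the 4 endothelial genes summed to 13.01 to 16.22 CPM, with Tek at 11.32 to 14.63. Sall4 was at 246, 255 and 238 CPM in GS, 224, 222 and 231 in CMM, 68.9, 67.5 and 72.4 in ECCMM and 0 in all RCF libraries. Gata4 was at 603, 589 and 594 CPM in GS, 487, 498 and 500.1 in CMM, 281, 286 and 289 in ECCMM and 203, 206 and 209.8 in RCF. Neither gene was shared, since both fell by less than 2-fold in CMM (log2 -0.13 for Sall4 and -0.27 for Gata4). The ECCMM levels of both were below the CMM levels, and viral and rat transcripts cannot be separated in these counts.

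Many shared genes belong to programs whose workings are well known. Entry into S phase is driven by E2F transcription factors, which are held back by the retinoblastoma protein until cyclin-dependent kinases release them, and their targets build the replication machinery. Genes of mitosis peak later and are governed by the DREAM, MYB and FOXM1 complexes, which act through the cell cycle homology region of the promoter. Cholesterol synthesis genes are switched on by SREBP2 when membrane sterol is low. Immediate early genes are transcription factors such as Egr1 and Fos that are induced within minutes of serum, growth factors or stress, through serum response factor bound at CArG boxes. The mitochondrial genome encodes 13 proteins of the respiratory chain and is transcribed as long transcripts that are cut at tRNAs.

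Promoter windows of shared members of these lists are shown because the members moved together and short motifs of the factors above can be looked for in them. Sequences are from RefSeq (build GRCr8), 250 bases before to 50 after 1 listed start per gene, and 212 of the 300 shared genes had an entry. The E2F motif was searched as TTTGGCGC, TTTCCCGC or TTTCGCGC on both strands. It was found in 8 of 19 shared replication genes (42.1%), in 15 of all 33 tested replication genes (45.5%), in 18 of 140 shared rises (12.9%), in 3 of 72 shared falls (4.17%) and in 1.82% of all 27457 promoters. Capitals mark the match, and the windows are chr19:13488588-13488619 (plus strand), chr13:42404472-42404503 (minus strand) and chr9:120776101-120776132 (minus strand), with the match starting at -213, -139 and -37 from the start site. In Mcm5 and Mcm6 a second match on the other strand overlaps the one in capitals.
Mcm5: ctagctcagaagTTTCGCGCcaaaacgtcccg
Mcm6: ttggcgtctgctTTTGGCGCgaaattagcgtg
Tyms: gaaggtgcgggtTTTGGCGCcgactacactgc

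The cell cycle homology region was searched as TTTGAA on both strands. It was found in 8 of 12 shared mitosis genes (66.7%), in 23 of all 32 tested mitosis genes (71.9%), in 41 of 140 shared rises (29.3%), in 5 of 72 shared falls (6.94%) and in 18.1% of all promoters. A motif this short occurs often, and that share is only a rough level to read against, since all promoters include genes not tested here. In the other tested lists searched, the share ran from 3.33% (ATF4 list) to 17.6% (immediate early genes). Capitals mark TTTGAA or its reverse complement in chr8:71320646-71320675 (minus strand), chr7:135302621-135302650 (plus strand), chr10:84473098-84473127 (minus strand) and chr2:111966764-111966793 (minus strand).
Kif23: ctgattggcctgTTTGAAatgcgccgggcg
Espl1: ccactagagataTTTGAAaggaggtgctgg
Top2a: gctagatgaatgTTCAAAtgaaactaggga
Ect2: ccgtttagcttaTTTGAAacacacgcatag

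In the cholesterol list the CCAAT box, bound by NF-Y, was found in 5 of 5 shared members with a promoter entry, in 14 of 18 tested members (77.8%) and in 37.7% of all promoters. Among the shared rises 70 of 140 held it (50%), and among the shared falls 22 of 72 (30.6%). The box was not particular to the cholesterol list. It was in 24 of 32 tested mitosis genes (75%) and 18 of 33 tested replication genes (54.5%). The shares were 47.1% of tested immediate early genes, 46.7% of the ATF4 list and 38.5% of interferon genes. The sterol element, searched as TCACNCCAC on both strands, was in 0 of those 18 tested members and in 1.13% of all promoters, which says only that these letters are not in this window. Capitals mark CCAAT or ATTGG, its reverse complement, in chr17:66547574-66547602 (minus strand), chr2:176804885-176804913 (minus strand), chr19:67414993-67415021 (minus strand), chr1:212789614-212789642 (minus strand) and chr7:115543166-115543194 (plus strand). Idi1 and Fdps hold a second match that is not printed.
Idi1: tgcctccagctgATTGGtgagcccgggca
Fdps: gaggtcattcagCCAATcagcgaactcgg
Mvd: ggcccgtcgcctATTGGacggcacgggag
Tm7sf2: ctcccagcgttgATTGGctactgtgctgg
Srebf2: cttcgcgctccgATTGGctaatgcaggcc

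Of the 6 shared immediate early genes, 3 had a promoter entry and 2 of those, Egr2 and Egr1, held a CArG box, against 1.64% of all promoters. The box was in 5 of 17 tested immediate early genes (29.4%), 3 of 72 shared falls (4.17%) and 3 of 140 shared rises (2.14%). Other motifs were searched too. The AP-1 motif (TGANTCA) was in 0 of 17 tested immediate early genes and 7.33% of all promoters. The CARE motif (TGATGNAA) was in 8 of 30 tested genes of the ATF4 list (26.7%) and 3.82% of all promoters. The interferon element (TTTCNNTTT) was in 17 of 26 tested interferon genes (65.4%) and 11.5% of all promoters. Capitals mark the box of Egr2 in chr20:21054503-21054536 (minus strand), which begins at -83 from the start site.
Egr2: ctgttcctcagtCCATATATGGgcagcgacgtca

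Most genes of DNA replication and S phase were higher in both media, 38 of 40, and they formed the largest group of listed genes among the shared rises. All 40 listed genes were tested and all 40 were higher in the averaged comparison, against 31.6% of tested genes, with a median log2 change of 1.35 (1.39 in CMM and 1.36 in ECCMM) where the median of all tested genes was -0.01. In the single media 39 were called higher in CMM and 39 in ECCMM. Of the 40, 24 met the shared rule, against 1.35% of tested genes. Tk1, which phosphorylates thymidine for DNA synthesis (ENSRNOG00000047314, chromosome 10, 106817601 to 106828884), was at 29.7, 31.7 and 32.3 CPM in GS, 164, 172 and 169 in CMM and 198, 193 and 199 in ECCMM. Every media library lay far above every GS library, and RCF was at 34.4 ± 1.25 CPM, close to GS. The averaged rise was 5.83-fold (log2 2.54 ± 0.0414), and the media differed by log2 0.23 (95% interval 0.14 to 0.31).

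The rises took in several steps of copying DNA. Of the MCM helicase, which unwinds DNA at forks, Mcm2, Mcm3, Mcm4, Mcm5 and Mcm6 were shared, with averaged log2 changes of 1.28 to 1.86, while Mcm7 rose by 1.16 in CMM and 0.68 in ECCMM and was not shared. Mcm5, whose E2F match is printed above, was at 26.7, 31.5 and 31.4 CPM in GS, 104, 102 and 109 in CMM and 118, 111 and 104 in ECCMM. The media libraries did not reach down to the GS range, and those of CMM and ECCMM overlapped, with a difference of log2 0.08 (interval -0.03 to 0.20) between them. Of the polymerases, Pole and Pole2, subunits of polymerase epsilon on the leading strand, and Pold1, the catalytic subunit of polymerase delta, were shared. Pole2 was at 3.95, 3.24 and 4.18 CPM in GS, 14.9, 13.2 and 13.9 in CMM and 16.7, 17.1 and 17.6 in ECCMM, an averaged 4.08-fold rise. Chaf1a and Chaf1b, subunits of the chaperone that loads histones behind the fork, were shared as well, and Chaf1b was at 4.77, 5.32 and 4.31 CPM in GS, 16.6, 16.3 and 18.5 in CMM and 19.8, 18.5 and 20.5 in ECCMM. Of the enzymes that supply nucleotides, Rrm1, Rrm2, Tyms and Dut were shared at averaged log2 changes of 1.57, 1.63, 1.28 and 1.56.

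Tyms, thymidylate synthase, was nearly even between the media. It was at 18.6, 21.8 and 18.9 CPM in GS, 46.3, 51.3 and 46.2 in CMM and 49.2, 45.2 and 50.1 in ECCMM, with an ECCMM to CMM difference of log2 0.01 (interval -0.14 to 0.15). Members outside the rule include some that rose in 1 medium only. Cyclin E1 (Ccne1) was 18.7 CPM in GS, 48.2 in CMM and 17.9 in ECCMM, where it was not called, while cyclin E2 (Ccne2) was shared at 11.5, 32.8 and 29.6 CPM. Gins2, of the replicative helicase complex, was called in opposite directions, lower in CMM (log2 -0.32) and higher in ECCMM (log2 0.97).

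Genes of mitosis and the spindle moved the same way, by more on the median than the replication genes. All 39 matched genes were tested and higher in the averaged comparison and in each medium, with a median log2 change of 1.80 (1.66 in CMM and 2 in ECCMM). The averaged comparison called 31.6% of all tested genes higher. Of the 39 genes, 16 were shared, against 1.35% of tested genes, and 21 of the other 23 rose by more in ECCMM. Kif23, a kinesin of the central spindle that is needed for cytokinesis (ENSRNOG00000014080, chromosome 8, 66866082 to 66893196), was at 27.9, 22.6 and 28.01 CPM in GS, 143, 144 and 131 in CMM and 141, 140.2 and 143 in ECCMM. The media groups overlapped each other and lay far above GS, an averaged rise of 5.35-fold (log2 2.42 ± 0.0542) with a difference between media of 0.02 (-0.08 to 0.13). Incenp and Aurkb, the scaffold and the kinase of the chromosomal passenger complex, rose together.

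Incenp was at 18.2, 17.6 and 19.8 CPM in GS, 90.2, 97.01 and 87.00 in CMM and 85.8, 83.6 and 84.4 in ECCMM. Aurkb was between 13.7 and 15.7 CPM in the 3 GS libraries, 64.2, 65.5 and 62.5 in CMM and 66.9, 71.4 and 73.2 in ECCMM. Their averaged rises were 4.75-fold and 4.53-fold, with no overlap of GS and media libraries in either. The regulators Foxm1, Plk1, Aurka, Ccnb1 (cyclin B1) and Ccna2 (cyclin A2) were shared, at averaged rises of 3.45, 3.11, 3.21, 2.83 and 4.29 fold. The checkpoint genes Bub1, Mad2l1 and Ttk were shared at 3.72, 3.32 and 3.03 fold. Kif20a, a mitotic kinesin, shows how the unshared members differ: it was 31.8 CPM in GS, 116 in CMM and 266 in ECCMM. Levels in RCF were nearer GS than the media for 23 of the 24 shared replication genes and all 16 shared mitosis genes, on log2(CPM + 0.5).

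**Figure D2:**
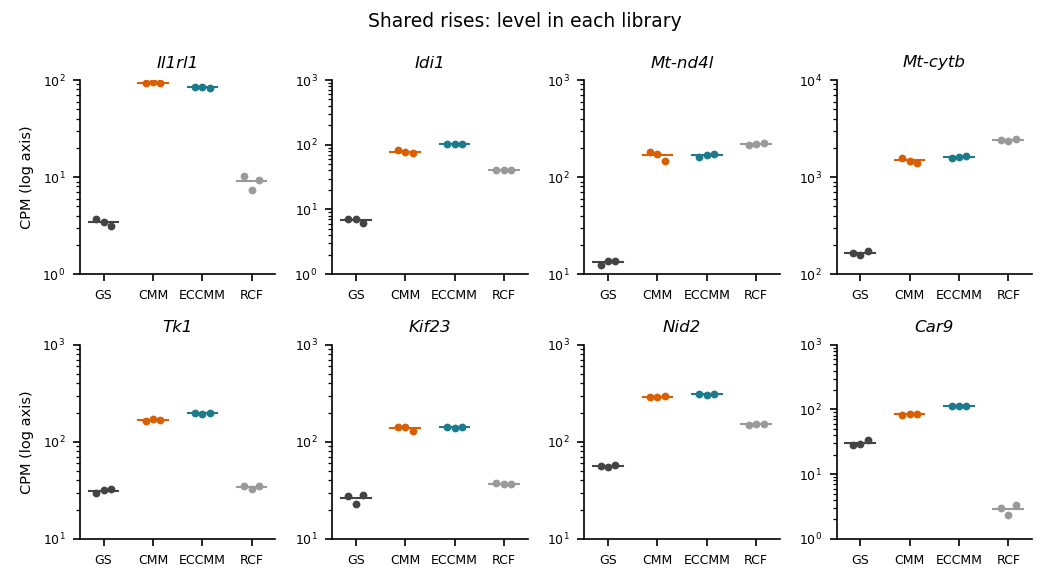
CPM in each of the 12 libraries (points, log axis) with the group mean (line) for 8 shared rises. For Il1rl1, Idi1, the mitochondrial genes Mt-nd4l and Mt-cytb, Tk1, Kif23, the basement membrane gene Nid2 and Car9, the 6 media libraries lie above the 3 GS libraries with no overlap, while the RCF level is nearer GS than the media for Tk1 and Kif23 and above both media for the mitochondrial genes.

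The largest shared rise was that of Il1rl1, which encodes the receptor for interleukin 33 (ENSRNOG00000014835, chromosome 9, 47134034 to 47182170). It was at 3.72, 3.47 and 3.15 CPM in GS, 94.2, 94.7 and 92.5 in CMM, 84.5, 85.1 and 83.1 in ECCMM and 10.3, 7.44 and 9.42 in RCF. The 6 media libraries lay within a narrow band, far above GS and above RCF. The averaged rise was 25.6-fold (log2 4.68 ± 0.103), and the media differed from each other by log2 -0.15 (-0.28 to -0.03).

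Cholesterol synthesis and uptake genes rose in both media. Of 26 tested, 24 were higher and 1 lower in the averaged comparison, against 31.6% and 33.9% of all tested genes, with a median log2 change of 2.06, and the medians by medium were 1.46 in CMM and 2.16 in ECCMM. Of the 26, 6 were shared, against 1.35% of tested genes, and in 17 of the other 20 the log2 change was larger in ECCMM. Idi1, which makes the isoprenoid unit dimethylallyl diphosphate (ENSRNOG00000016690, chromosome 17, 57976268 to 57984036), was at 7.07, 7.23 and 6.12 CPM in GS, 81.7, 76.5 and 75.5 in CMM and 103, 103 and 103 in ECCMM. All media libraries were above the RCF level of 40.9 ± 0.409 CPM, and GS was below it. The averaged rise was 13.1-fold (log2 3.71 ± 0.0698). Fdps, the next enzyme of the pathway, was at 68.5, 69.5 and 68.4 CPM in GS, 274, 275 and 266 in CMM and 353, 359 and 383 in ECCMM. Mvd, which makes isopentenyl diphosphate upstream of both, was at 9.27, 7.35 and 9.59, 33.1, 36.1 and 35.01 and 40.3, 37.97 and 41.7 CPM in the same groups.

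The averaged rises of Fdps and Mvd were 4.58-fold and 4.26-fold, with no overlap of GS and media. Tm7sf2, a sterol reductase, and Stard4, a sterol transport protein, were shared at 3.996-fold and 4.06-fold, and Srebf2, which encodes SREBP2 itself, at 2.37-fold. Scap, the escort protein of SREBP, was the member called lower, with log2 changes of -0.30 in CMM and -0.48 in ECCMM.

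All 13 protein genes of the mitochondrial genome were tested and higher in both media, with a median log2 change of 2.88 (2.83 in CMM and 2.98 in ECCMM), and 11 of them were shared. Among all tested genes 31.6% were higher on average and 1.35% were shared rises. Of the 22 tested genes on the mitochondrial chromosome, 11 were shared rises. Mt-nd4l, a subunit of complex I (ENSRNOG00000031053, chromosome MT, 9870 to 10166), was at 12.3, 13.7 and 13.7 CPM in GS, 183, 173 and 146 in CMM and 159.9, 169 and 173 in ECCMM. Mt-cytb, the cytochrome b of complex III, was at 167, 158 and 173 CPM in GS, 1581, 1479.7 and 1404 in CMM and 1558, 1607 and 1636 in ECCMM. The GS libraries were low in both genes and the media groups overlapped or lay close together, with averaged rises of 12.7-fold and 9.299-fold.

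Other complex I subunits followed, Mt-nd1 at 9.26-fold, Mt-nd2 at 7.34-fold, Mt-nd5 at 8.64-fold and Mt-nd6 at 6.85-fold. The cytochrome oxidase genes Mt-co1 and Mt-co2 rose 7.34-fold and 7.58-fold, and Mt-atp6 of the ATP synthase 6.09-fold. Mt-nd6 is the member read from the opposite strand and was at 16.9, 17.1 and 15.8 CPM in GS, 116, 113 and 104 in CMM and 114, 124 and 112 in ECCMM. Mt-nd4 had changes of log2 3.11 and 3.45 with an interval of the difference beyond the bound, and Mt-nd3 rose by 1.23 in CMM and 0.92 in ECCMM, the second under 2-fold. The share of all counts on mitochondrial genes was 0.244 ± 0.00216% in GS, 1.59 ± 0.104% in CMM, 1.83 ± 0.0344% in ECCMM and 2.21 ± 0.0394% in RCF. GS was below the other 3 groups, and for all 11 shared members the RCF level was nearer the media than GS. The part of this share in the rises was not tested, and the sources used here do not say whether RNA of GS was handled like that of the other groups. Mt-nd4l and Mt-nd4, Mt-atp8 and Mt-atp6, and Mt-nd5 and Mt-nd6 overlap in position, and nuclear copies of mitochondrial DNA can take reads, so how reads were split between such genes is uncertain.

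Smaller numbers of shared rises came from other lists. Of 22 tested genes of endoplasmic reticulum chaperones and XBP1 targets, 17 were higher and 5 lower, and 3 were shared. Among all tested genes 31.6% were higher, 33.9% lower and 1.35% shared rises. Hsp90b1, a chaperone of the endoplasmic reticulum, was at 735, 725 and 758 CPM in GS, 1719.6, 1663 and 1624 in CMM and 2118, 2139.9 and 2156 in ECCMM. Pdia4, a disulfide isomerase, was 305 ± 12.6, 651 ± 27.8 and 651 ± 3.86 CPM, and Ssr1, a subunit of the translocon-associated complex, was 154 ± 6.04, 346 ± 2.67 and 339.5 ± 8.91 CPM. Their averaged rises were 2.56-fold, 2.14-fold and 2.22-fold, and in the same list Herpud1, of protein disposal, was lower, at 301 CPM in GS, 109 in CMM and 75.1 in ECCMM.

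The glycolysis and hypoxia list had 22 members higher and 3 lower of 30 tested, with 6 called in opposite directions. The averaged counts stand against 31.6% higher and 33.9% lower of all tested genes, and 1 member was shared. This was Car9, a carbonic anhydrase induced by low oxygen, at 28.5, 29.1 and 34.3 CPM in GS, 82.4, 86.2 and 84.1 in CMM, 115, 113 and 112 in ECCMM and 2.89 ± 0.519 in RCF. Its averaged rise was 3.203-fold, with the ECCMM libraries above the CMM libraries. Of 22 fatty acid synthesis genes 13 were higher and 5 lower, with Acly, which supplies cytosolic acetyl-CoA, shared at 146, 143 and 138 CPM in GS, 354, 343 and 350.4 in CMM and 284, 293 and 294 in ECCMM, 2.24-fold up.

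The list members were 62 of the 194 shared rises, 40 of them from the replication and mitosis lists. Of the other shared rises, 4 were small nucleolar RNAs, which guide the chemical modification of ribosomal RNA and lie inside introns of host genes. Small nucleolar RNAs were 95 of the 14399 tested genes, and 1.35% of tested genes were shared rises. The largest of the 4 rises was SNORD78 (ENSRNOG00000055990, chromosome 13, 78854343 to 78854408), at 1.47, 1.74 and 2.38 CPM in GS, 9.51, 12.1 and 13.3 in CMM and 11.9, 10.7 and 10.97 in ECCMM, a 6.19-fold rise whose reads can come from the host transcript. SNORD44, another of the 4, lies close to SNORD78 on the same strand (78854049 to 78854109), so their rises may not be independent. Of all 300 shared genes, 131 (81 rises and 50 falls) still differed between ECCMM and CMM by test, within the bound. Shared rises had a median gene length of 2392 bases against 2281 for all tested genes, and 96.4% were protein coding against 94.8%.

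**Figure D3:**
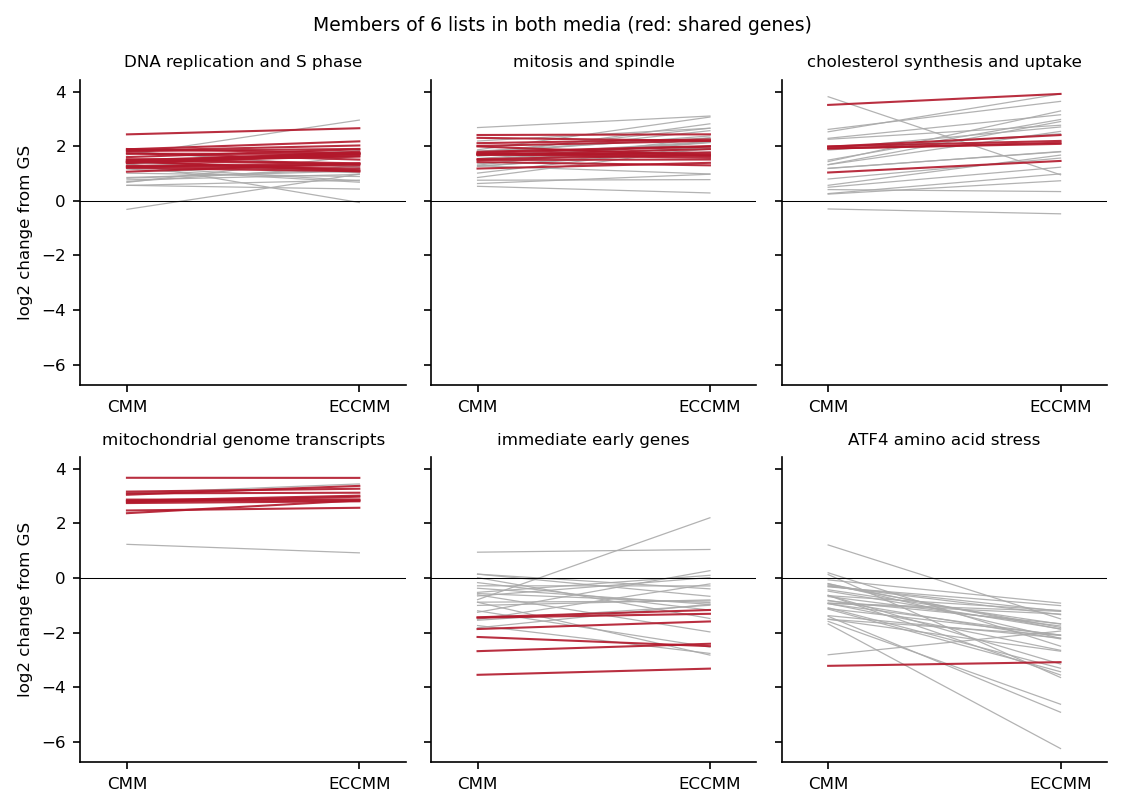
Log2 change from GS in CMM and in ECCMM for each tested member of 6 lists, with a line joining the 2 media for each gene and shared genes in red. Lines are near level for replication and mitochondrial genes, rise to the right for many mitosis and cholesterol genes, and fall to the right for the ATF4 list, where Stc2 is the shared member.

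Most immediate early genes were lower in both media, 18 of 27 tested, while 3 were called in opposite directions. In CMM 22 were lower and 2 higher, and in ECCMM 21 were lower and 3 higher. Of the 27, 24 were lower and 2 higher in the averaged comparison, against 33.9% of tested genes lower, with a median log2 change of -0.87 (-0.89 in CMM and -0.97 in ECCMM). Of these, 6 were shared falls, against 0.736% of tested genes. Egr2, a zinc finger transcription factor (ENSRNOG00000000640, chromosome 20, 22454463 to 22459025), was at 28.4, 28.6 and 28.7 CPM in GS, 3.04, 1.87 and 2.38 in CMM, 2.23, 2.93 and 3.39 in ECCMM and 38.9, 40.9 and 40.8 in RCF. It was high in GS and RCF and low in all 6 media libraries, 10.8-fold lower on average (log2 -3.43 ± 0.11), with a difference between the media of 0.23 (-0.10 to 0.56). Egr1, its relative, was at 636, 608 and 649.6 CPM in GS, 103, 99.6 and 92.9 in CMM and 122, 116 and 119 in ECCMM, 5.84-fold lower. Atf3, a stress-induced factor, was at 208, 203 and 204 CPM in GS, 43.7, 45.03 and 49.1 in CMM, 36.8, 36.7 and 35.5 in ECCMM and 3.46, 4.88 and 4.73 in RCF, 5.02-fold lower in the media and still above RCF.

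Klf4 and Myc, which the pluripotency list also holds, were shared falls. Klf4 was at 536, 519.9 and 519.9 CPM in GS, 149, 138 and 144 in CMM and 181, 168 and 174 in ECCMM, 3.32-fold lower. Myc was at 144, 140.0 and 148 CPM in GS, 55.8, 50.4 and 51.2 in CMM and 56.2, 59.4 and 58.4 in ECCMM, 2.61-fold lower, with no overlap of GS and media for either. The sixth shared member, Klf10, fell 2.47-fold. Members outside the shared rule fell by unequal amounts or split: Fos was 49.2 CPM in GS, 21.4 in CMM and 8.48 in ECCMM. Fosl1 was 27.3, 15.8 and 126 CPM, lower in CMM and higher in ECCMM. Of the 18 tested pluripotency genes, 12 were lower and 0 higher on average, 9 were lower in both media and 4 were called in opposite directions, and Klf4 and Myc were its only shared members. Among all tested genes 33.9% were lower and 31.6% higher on average.

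**Figure D4:**
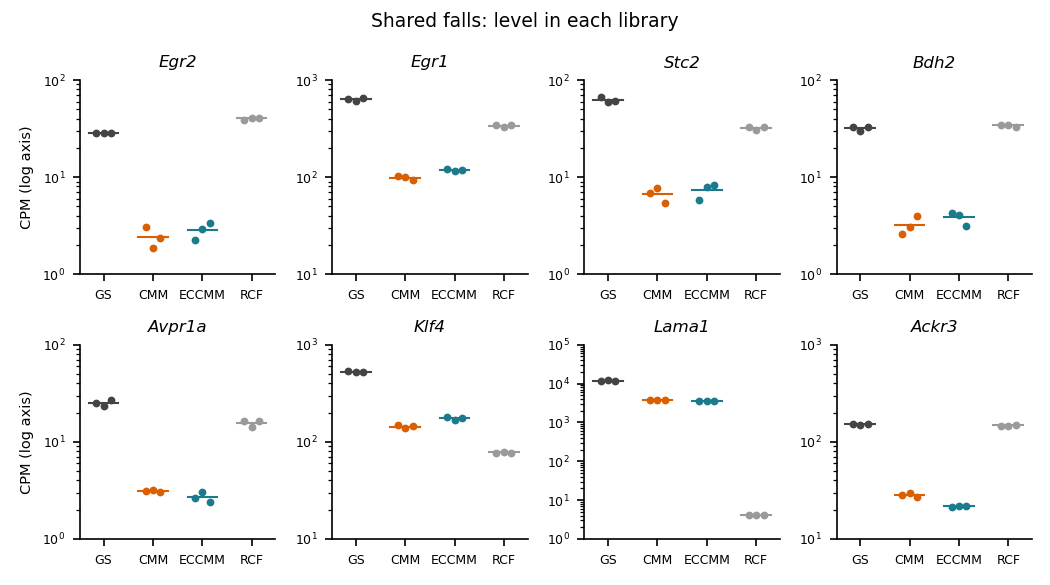
CPM in each of the 12 libraries (points, log axis) with the group mean (line) for 8 shared falls. For Egr2, Egr1, Stc2, Bdh2, Avpr1a, Klf4, Lama1 and Ackr3, the 6 media libraries lie below the 3 GS libraries with no overlap, and the RCF level is near GS for Bdh2 and Ackr3 and below the media for Klf4 and Lama1.

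Genes of the ATF4 program, which answers amino acid shortage and stress, were mostly lower in both media, 28 of 33 tested, but by different amounts. In CMM 28 were lower and 2 higher, in ECCMM all 33 were lower, and 2 were called in opposite directions. In the averaged comparison 32 were lower and 0 higher, against 33.9% of tested genes lower, with a median log2 change of -1.52 that was -0.82 in CMM and -2.10 in ECCMM. The shared member was Stc2, a secreted glycoprotein (ENSRNOG00000020729, chromosome 10, 16542882 to 16553295), at 66.9, 59.99 and 60.2 CPM in GS, 6.85, 7.71 and 5.45 in CMM, 5.81, 7.88 and 8.36 in ECCMM and 33.02, 30.4 and 32.8 in RCF. The media libraries of both groups overlapped each other and lay far below GS and RCF, an averaged 8.88-fold fall (log2 -3.15 ± 0.092). By contrast Chac1, which degrades glutathione, was 163 CPM in GS, 61.5 in CMM and 5.39 in ECCMM.

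Several of the largest shared falls lie outside the lists. Bdh2, a cytosolic dehydrogenase (ENSRNOG00000014490, chromosome 2, 240461505 to 240482145), was at 33.1, 29.5 and 33.1 CPM in GS, 2.57, 3.08 and 3.999 in CMM and 4.304, 4.07 and 3.13 in ECCMM, 9.104-fold lower, with RCF at the GS level (34.02 ± 0.748). Avpr1a, a vasopressin receptor, was at 25.3, 23.3 and 26.8 CPM in GS, 3.14, 3.18 and 3.01 in CMM and 2.64, 3.02 and 2.402 in ECCMM, 8.65-fold lower. Ackr3, a scavenging chemokine receptor, was at 152, 151 and 151 CPM in GS, 28.2, 29.7 and 27.1 in CMM and 21.5, 21.8 and 21.99 in ECCMM, 6.096-fold lower. In all 3 genes the media libraries were well separated from GS, and in Ackr3 the ECCMM libraries were also below the CMM libraries.

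Among secreted proteins, Bmp3, a member of the BMP family, was at 89.8, 94.2 and 85.7 CPM in GS, 15.9, 15.9 and 13.9 in CMM and 14.2, 14.1 and 15.2 in ECCMM, 6.04-fold lower. C1qtnf5, a C1q and TNF related protein, was at 260.1, 248 and 276 CPM in GS, 41.3, 39.2 and 44.2 in CMM and 53.3, 47.7 and 44.8 in ECCMM, 5.82-fold lower. Both were clear of GS in every media library. Rarres2, the adipokine chemerin and the shared member of the retinoic acid list, fell 4.75-fold, from 11.97 ± 0.521 CPM in GS to 2.597 ± 0.737 in CMM and 2.44 ± 0.233 in ECCMM. Adamts15, a metalloproteinase of the matrix, fell 3.92-fold, from 115 ± 5.09 CPM to 27.2 ± 1.72 in CMM and 31.7 ± 0.829 in ECCMM. RGD1309079, listed by its identifier only, fell 3.93-fold, from 462 ± 14.3 CPM to 136 ± 3.12 and 102 ± 6.77.

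Single shared falls came from 4 more lists. Bmp4, a mesoderm and cardiac progenitor signal, was at 130.5, 135 and 138 CPM in GS, 55.9, 65.95 and 61.4 in CMM and 52.7, 54.00 and 57.4 in ECCMM, 2.32-fold lower, in a list with 16 of 26 tested genes lower and 2 higher on average but 9 lower in both media. Hmox1, heme oxygenase and an NRF2 target, fell 2.33-fold, from 193 ± 3.64 CPM in GS to 83.9 ± 2.33 in CMM and 81.6 ± 4.61 in ECCMM, in a list with 13 of 23 higher and 8 lower. Cdc42ep3, a Cdc42 effector in the list of YAP and TEAD targets (6 higher and 12 lower of 22 on average, with 10 opposite), fell 2.92-fold, from 109 ± 4.65 CPM in GS to 41.7 ± 3.28 in CMM and 33.3 ± 1.22 in ECCMM. Mx2, an interferon-induced GTPase, was at 12.4, 12.7 and 10.7 CPM in GS, 5.37, 5.395 and 5.27 in CMM and 4.98, 4.38 and 3.71 in ECCMM, 2.48-fold lower. All 4 had GS above every media library. The averaged list counts stand against 31.6% higher and 33.9% lower of all tested genes. List members were 12 of the 106 shared falls, and 17 of the 106 (16.04%) carry a transcription factor family in the deposited table, against 8 of 194 shared rises (4.12%) and 6.84% of tested genes.

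The lists of differentiated cell types and several signalling lists held no shared gene. For the labelled lineages, the cardiomyocyte list had 12 of 24 tested members higher and 6 lower, with a median of 1.03 in CMM and 0.11 in ECCMM, and the endothelial list had 11 of 22 higher and 6 lower, with medians of 0.21 and 0.27. Of 23 genes of smooth muscle and myofibroblasts, 13 were higher and 5 lower, with medians of 0.87 in CMM and -0.04 in ECCMM, and 12 of the 23 were called in opposite directions. Of 44 genes of fibroblasts and their matrix, 15 were higher and 26 lower, with 18 called in opposite directions. Counts higher and lower were 9 and 12 of 29 for epithelial and mesothelial genes, endoderm and hepatocyte genes 1 and 7 of 10, pericyte and mural genes 1 and 6 of 10, leukocyte genes 4 and 5 of 15, and neural and glial genes 1 and 5 of 10. These averaged counts stand against 31.6% higher and 33.9% lower of all tested genes. Of the pericyte genes 4 of 10 were called in opposite directions, with medians of -1.99 in CMM and -0.01 in ECCMM, and of the epithelial and mesothelial genes 8 of 29. Opposite calls numbered 1637 among all 14399 tested genes. The list counts are over members that passed the filter on low counts, not over all listed genes.

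Chemokine and cytokine genes were 2 higher and 21 lower of 28 on average, with medians of -1.64 in CMM and -0.41 in ECCMM, and 13 were lower in both media. The list of TGF-beta and activin responses had 2 higher and 17 lower of 24 on average, but 8 were lower in both media and 10 were called in opposite directions. On average the list of Wnt, Notch and BMP targets had 3 of 21 members higher and 14 lower, and 4 of 15 glucocorticoid response genes were higher and 10 lower, against 31.6% and 33.9% of all tested genes. Of the Wnt, Notch and BMP targets 7 were lower in both media, and of the glucocorticoid response genes 8, with 5 opposite calls in each list. The retinoic acid list had 4 higher and 10 lower of 18, with 7 lower in both. Genes of ERK feedback were 5 higher and 8 lower of 17 on average, with 15 lower and 0 higher in CMM, 9 higher and 6 lower in ECCMM and 8 called in opposite directions. Of 30 fatty acid oxidation genes 12 were higher and 9 lower on average with 6 opposite, and the list of p53 targets and cell cycle inhibitors had 10 of 28 higher and 15 lower with 4 opposite. Among all 14399 tested genes 1637 were called in opposite directions and 2739 were lower in both media. Apart from the retinoic acid list, with Rarres2, none of these lists held a shared gene.

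An average of both media can hide opposite changes, as in the TGF-beta, ERK feedback and smooth muscle lists above and in 2 more. Of 34 interferon response genes, 4 were higher and 23 lower in the averaged comparison, yet 30 were lower in CMM while 15 were higher and 9 lower in ECCMM, and 13 were called in opposite directions. Ribosome biogenesis genes were 13 higher and 6 lower of 25 on average, with 23 higher in CMM, 20 lower in ECCMM and 18 called in opposite directions. Over all 14399 tested genes the averaged shares were 31.6% higher and 33.9% lower, and 1637 genes had opposite calls. The medians of all tested genes were close to 0 in every comparison, within 0.0105 of it on the log2 scale.

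**Figure D5:**
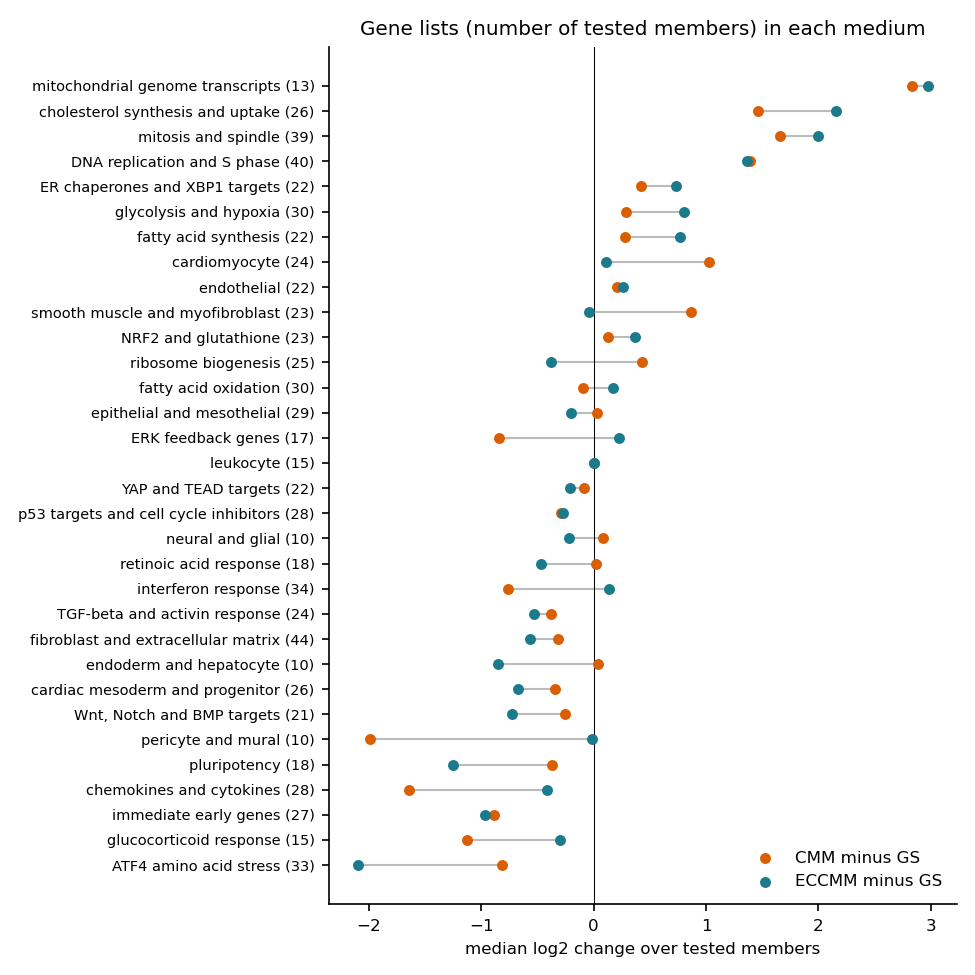
Median log2 change from GS in CMM (orange) and in ECCMM (teal) over the tested members of 32 gene lists, with the number tested in parentheses. The points of the mitochondrial, replication and immediate early lists lie close together, as do those of the p53, endothelial and leukocyte lists. Those of the pericyte, interferon, ribosome biogenesis and ATF4 lists lie apart. Close medians do not show that the members changed alike, since a list can hold opposite calls.

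Genes that moved the same way by very different amounts mark the outer limit of the shared response. Igf2, the insulin-like growth factor of fetal tissue, was at 1.47, 1.79 and 1.42 CPM in GS, 14.9, 14.6 and 14.9 in CMM and 92.1, 89.4 and 92.4 in ECCMM. Fam64a, a gene of the cell cycle, was at 1.97, 2.26 and 2.32, 16.6, 17.1 and 18.4 and 77.1, 74.4 and 73.4 CPM. Both rose in both media, with ECCMM several times above CMM. Among falls, Inhbe, an activin subunit of liver, was at 16.3, 11.5 and 16.1 CPM in GS, 1.28, 1.56 and 2.26 in CMM and 0.311, 0.175 and 0.679 in ECCMM. Slc24a3, a sodium and calcium exchanger, was at 12.9 ± 0.354, 3.51 ± 1.11 and 0.0492 ± 0.0521 CPM, and Scin, an actin-severing protein, at 18.7 ± 0.599, 0.0336 ± 0.0582 and 8.65 ± 0.983 CPM.

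In the named genes with opposite calls the average says little about either medium. Acta2, smooth muscle actin, was at 87.8, 83.9 and 93.5 CPM in GS, 964, 973 and 946 in CMM and 8.401, 10.9 and 10.2 in ECCMM, so that the averaged change of log2 0.14 (adjusted p = 0.00755, edgeR) stands between a large rise and a large fall, and it was lost without ECCMM replicate 2 (log2 0.10, adjusted p = 0.0601). Car3, a carbonic anhydrase, was at 2.503 ± 0.399 CPM in GS, 29.9 ± 1.699 in CMM and 0 in all ECCMM libraries. Kcnj8, a subunit of ATP-sensitive potassium channels, was at 1.86 ± 0.297, 0.158 ± 0.0950 and 15.4 ± 2.42 CPM in GS, CMM and ECCMM. Aldh3a1, an aldehyde dehydrogenase, was at 2.42 ± 0.526, 0.0697 ± 0.0763 and 50.8 ± 1.89 CPM. Neither Kcnj8 nor Aldh3a1 passed the averaged test (adjusted p = 0.365 and 0.333), although each was called in both single media in opposite directions.

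The wild-type fibroblasts give a reference for the shared genes. On log2(CPM + 0.5), the RCF mean was nearer GS than the media for 133 of the 194 shared rises and nearer the media for 61, while the 106 shared falls split 53 to 53. Among the named groups it was nearer the media for all 11 mitochondrial genes, 4 of the 6 cholesterol genes and 4 of the 6 immediate early genes.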

How the data were processed

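Per the labels' protocols, RNA came from RNeasy Mini columns and went into Ovation RNA-seq System v2 libraries. The authors deposited whole-number read counts per gene, not normalized, with Ensembl rat gene numbers, symbols and positions. Per the submitters' processing notes the tools and builds include Bowtie 0.12.2, Rnor_6.0 and mm8, with no roles. Gene positions are those of the table, and the sources used here name no annotation release, counting program or strand setting, so reads of overlapping, antisense or near-identical genes cannot be separated.

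Counts of all 12 libraries were fitted in 1 edgeR 4.0.16 quasi-likelihood model (R 4.3.3, limma 3.58.1, TMM factors, filterByExpr, robust dispersion, a term per group, 8 residual degrees of freedom). Genes under the filter (18146) were not tested. Contrasts were two-sided, and p-values were adjusted by Benjamini-Hochberg over all 14399 tested genes. RCF entered the filter, the TMM factors and the spread, but no contrast. With the 9 GS, CMM and ECCMM libraries alone, 13920 genes were tested. Standard errors and 95% intervals come from the same fit. Named genes were Sall4 and Gata4, the 12 largest shared rises and falls with at least 10 CPM in the higher group, up to 3 shared members of each of 32 lists with at least 5 CPM, 3 rises and 3 falls whose sizes differ over 4-fold between media, and 2 genes with opposite calls each way. Some items that the rule names are not reported here. Other genes are named as examples after their values were seen. The members and lists were chosen with earlier results of these data known, and motif letters and 3 added lists after the values were seen. Of 885 listed symbols 868 matched, 9 of them through RefSeq names. The tests were tried on simulated data, and alternatives included DESeq2 1.42.0 and limma-voom. Within groups, library pairs differed by 4.44 to 7.57 times the chi-square of sampling noise per degree of freedom in each of 12 pairs, and no pair was counted as 1 sample. That libraries are separate cultures rests on the design text, and otherwise p-values measure the spread between these samples only.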

Additional observations from a re-analysis of the deposited data

Results flagged for a closer look

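In 9 named genes the response to CMM and the response to ECCMM differed by a test of the difference itself, the ECCMM minus CMM contrast of edgeR's quasi-likelihood model, which does not use the GS libraries. They were picked for their differences, so the test describes genes already chosen by size. On the log2 scale the difference was -6.60 for Acta2 (adjusted p = 1.34e-30), 6.58 for Kcnj8 (adjusted p = 1.76e-19) and 9.40 for Aldh3a1 (adjusted p = 7.75e-24), all called in opposite directions against GS. In the CMM libraries Kcnj8 had 4, 1 and 4 counts and Aldh3a1 0, 3 and 1, so the size of neither difference is dependable. The difference was -12.21 for Car3 (adjusted p = 8.67e-22), which had 0 counts in ECCMM, so the fitted value depends on the prior count and is no bound. Among genes lower in both media it was -2.14 for Inhbe (adjusted p = 9.36e-05), -5.99 for Slc24a3 (adjusted p = 4.13e-14) and 7.73 for Scin (adjusted p = 2.27e-18), with few counts left in the lower medium. Among genes higher in both it was 2.62 for Igf2 (adjusted p = 1.63e-21) and 2.11 for Fam64a (adjusted p = 1.39e-20). In each of the 9, all 3 ECCMM libraries lay on the same side of all 3 CMM libraries. The choice by size made this likely, so it is no further support.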

How the results depend on the processing

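The averaged change and the change in each medium were recomputed for the genes named by rule, and the ECCMM minus CMM difference where it is printed, under library totals alone, DESeq2 size factors, DESeq2's Wald test, limma-voom, no filter on low counts, a fit of the 9 libraries only, the replicate block and each library left out. Of the 864 averaged values 863 kept direction and call, the exception being Acta2 without ECCMM replicate 2. All 864 for ECCMM kept them, and 862 for CMM, where the fall of Sall4 was not called with library totals (log2 -0.07, adjusted p = 0.141) or without GS replicate 2 (log2 -0.09, adjusted p = 0.054). Of the printed differences between media 224 of 240 values kept direction and call, and the 9 genes with unequal or opposite changes kept both throughout. The small difference of Il1rl1 missed the threshold with library totals (adjusted p = 0.07) and without any 1 media library (adjusted p = 0.0538 to 0.0986), and that of Egr2 passed it without CMM replicate 1 (adjusted p = 0.0387). Leaving out 1 library turned the sign of 2 differences near 0, Kif23 at -0.01845 to 0.04315 and Tyms at -0.02223 to 0.05095. The shared genes depend on where the rule draws its lines. An interval within 2-fold gave 348 rises and 196 falls, a minimum of 1.5-fold in each medium 544 and 394, and no minimum fold 1700 and 1478, since each loosens the rule by construction. Leaving out 1 library gave 176 to 202 shared rises and 96 to 108 shared falls, 4296 to 4506 averaged calls higher and 4494 to 4820 lower, 8715 to 9247 calls for CMM, 9112 to 9757 for ECCMM and 8631 to 9260 between the media. Of the 300 shared genes, 266 to 292 met the rule again without 1 library and 277 to 300 under the other settings, and all 300 kept the averaged call in each. Of averaged calls 48.3% were higher, and 55.5% with library totals alone, which moved the median by log2 0.0731. Replicate numbers are shared across groups but do not pair the libraries: same-numbered deviations correlated at -0.045 to 0.0493, and 2 of 9 libraries correlated best with their own number. With the replicate block 195 rises and 110 falls were shared, with 4488 and 4830 averaged calls. At the depth of these libraries, genes with a few counts in a group, such as Scin, Slc24a3, Car3, Kcnj8 and Aldh3a1, have levels but no dependable fold.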

Other observations

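Basement membrane genes were looked at after 2 laminins were seen among the shared falls, so the list below was chosen by its values and has no test. Of 18 tested genes of laminins, nidogens, type IV collagens, perlecan (Hspg2) and agrin, 13 were lower and 3 higher in the averaged comparison, and 3 were shared. Among all tested genes 33.9% were lower, 31.6% higher, 0.736% shared falls and 1.35% shared rises. Lama1, the laminin chain of early embryonic basement membranes, was at 11642, 12551 and 11349 CPM in GS, 3775, 3679 and 3738 in CMM and 3547, 3566 and 3606 in ECCMM, against 4.096, 4.05 and 4.12 in RCF. The media libraries lay 3.25-fold below GS on average and far above RCF. Lamb1 was 8676 ± 192 CPM in GS, 3455 ± 18.2 in CMM and 4054 ± 14.3 in ECCMM. Nid2, nidogen 2, which links laminin to collagen networks, was higher in the media, at 56.4 ± 1.45 CPM in GS, 290.2 ± 3.72 in CMM and 308 ± 3.43 in ECCMM.

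Clock genes and SR splicing factors were chosen in the same way. Of 17 tested clock genes 15 were lower and 2 higher, against 33.9% and 31.6% of all tested genes. Dbp and Nr1d2 were shared falls, against 0.736% of tested genes. Dbp, a clock output factor, was at 48.7, 46.5 and 46.2 CPM in GS, 11.2, 11.3 and 11.9 in CMM and 12.2, 15.7 and 13.9 in ECCMM, and the time of day of harvest is not given in the sources used here. Of 11 SR splicing factors 9 were higher and 2 lower, to be read against the same shares. Srsf2, Srsf4 and Srsf7 were shared rises, against 1.35% of tested genes. Srsf2 was at 160.0, 157 and 165 CPM in GS, 458, 475 and 493 in CMM and 453, 435 and 447 in ECCMM.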
